A study of Mus musculus with 12 samples.

Results

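The genes described here encode the membrane carriers that move metformin and other small organic cations, with the related carriers of carnitine and ergothioneine. They are Slc22a2, Slc22a3, Slc22a4, Slc22a5, Slc47a1, Slc47a2 and Slc29a4, 7 genes chosen by name for their known substrates. Earlier results of these data were known when they were chosen. Of these 7, the platform annotation names a probe set for 6, 1 probe set each, among 19505 named genes and 22206 probe sets. No value is given for Slc22a3 (Oct3), whose probe set is not named there. Transcript levels were measured in RNA of whole kidney from mice aged 16 weeks, on Affymetrix Clariom S arrays, and each value is a log2 signal. There were 12 samples in 4 groups of 3: a wild type group on vehicle, and 3 Alport groups, on vehicle, on losartan and on metformin. The Alport mice were hemizygous for a nonsense allele (G5X) of Col4a5, which encodes a chain of glomerular basement membrane collagen, and this allele was shared by the 9 Alport samples. Losartan, a blocker of the angiotensin II receptor, was given in drinking water at 125 and later 250 µg/mL, and metformin, a biguanide, at 2.5 and later 5 mg/mL. The change of dose came at week 12 by the labels, which also speak of dosing up to week 20, past the stated age, and of losartan as co-administered. Group names here follow the titles. Whether each sample of a group was a different mouse is not stated, and the p-values rest on sample-to-sample spread that could be partly technical.

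Metformin is not broken down in the body and leaves it through the kidney. In the proximal tubule, organic cation transporters of the Slc22a family carry it from the blood into the cell, and the Mate exchangers of the Slc47a family pass it into the urine in exchange for protons. Slc22a4 (Octn1) carries ergothioneine and organic cations, and Slc22a5 (Octn2) recovers carnitine, which fatty acid oxidation needs, from the filtrate. Slc29a4 (Pmat) is a carrier of monoamines and of metformin that is known mainly from brain and gut.

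The 3 Slc22a genes measured lie on 2 chromosomes, 17 and 11, and the sequences before their start sites are shown because these genes lie apart or side by side while their levels fell in the same samples. Slc22a4 and Slc22a5 lie on the same chromosome, with 1 other protein-coding gene between them. The 250 bases before the annotated start are printed 5′ to 3′ along the gene, from RefSeq (GRCm38.p6), whose table held 6 of the 7 genes, all but Slc47a1. Capitals mark matches on either strand to any of 6 short motifs: the E-box CACGTG, the GC box GGGCGG, the TATA box TATAAA, the nuclear receptor motif AGGTCA, the HNF1 motif GTTAAT and the CCAAT box CCAAT.
Slc22a2, chr17:12583939-12584188, plus strand: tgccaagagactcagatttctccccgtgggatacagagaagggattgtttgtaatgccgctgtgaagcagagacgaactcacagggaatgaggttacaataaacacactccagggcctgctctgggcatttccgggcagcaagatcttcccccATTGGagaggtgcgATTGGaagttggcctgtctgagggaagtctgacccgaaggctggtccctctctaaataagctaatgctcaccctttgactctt
Slc22a4, chr11:54028105-54028354, minus strand: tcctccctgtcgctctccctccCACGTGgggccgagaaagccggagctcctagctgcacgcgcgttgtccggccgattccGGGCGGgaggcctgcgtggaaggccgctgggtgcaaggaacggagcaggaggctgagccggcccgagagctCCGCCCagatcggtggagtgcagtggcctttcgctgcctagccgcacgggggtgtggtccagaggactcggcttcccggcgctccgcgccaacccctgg
Slc22a5, chr11:53891704-53891953, minus strand: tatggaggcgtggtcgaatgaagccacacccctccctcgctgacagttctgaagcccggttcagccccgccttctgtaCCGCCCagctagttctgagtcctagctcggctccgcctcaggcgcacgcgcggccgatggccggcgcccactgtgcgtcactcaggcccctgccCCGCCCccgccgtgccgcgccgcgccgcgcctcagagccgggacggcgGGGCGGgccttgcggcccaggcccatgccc
The stretch before Slc22a2 was 51.6% G and C and held 2 CCAAT boxes on the opposite strand, the nearer of them 83 to 79 bases before the start. The stretches before Slc22a4 and Slc22a5 were 71.2% and 73.6% G and C, against a median of 52.4% over 32851 such stretches in the table. That of Slc22a4 held 1 E-box and 2 GC boxes, and that of Slc22a5 held 3 GC boxes. Over all 32851 stretches an E-box was found in 6.02%, a GC box in 32.7% and a CCAAT box in 33.8%. No marked match overlapped another of a different motif. None of the 3 stretches held the letters of the TATA box (12.4% of all), the nuclear receptor motif (14.0%) or the HNF1 motif (6.43%). A match is a description of the letters and not a binding site.

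The samples themselves were alike in scale, with medians from 5.88 to 6.07 and correlations across probe sets of 0.990 to 0.994 within groups and 0.975 to 0.993 between groups. The mutated gene Col4a5 read 5.06 to 5.83 in wild type and 4.13 to 4.97 in Alport vehicle, and fell by 0.92 ± 0.23 (SE, n = 3 per group, limma, Benjamini-Hochberg adjusted p = 0.0116). That call was lost without wild type sample 2 (adjusted p = 0.0663) or Alport vehicle sample 2 (0.0519). All 13 proximal tubule markers examined were measured, and none lay below the lower quartile of its samples.

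Alport kidneys given vehicle had lower signal of 4 of the 6 carriers than wild type kidneys: the uptake carrier Slc22a2, the exporter Slc47a1 and the carnitine and ergothioneine carriers Slc22a5 and Slc22a4. Slc22a4 had the largest change, to 24.5% of its wild type signal, while Slc22a2, Slc47a1 and Slc22a5 were at 43.5%, 44.5% and 50.4%. Among all probe sets, 7.71% fell and 8.43% rose in this comparison by the same rule (limma over all 12 samples, Benjamini-Hochberg adjusted p under 0.05). After each sample was centred on its median, which moved the median change of all probe sets from -0.03 to -0.17, 66.2% of the called probe sets were falls, against 47.8% as deposited. Slc47a2 and Slc29a4 did not pass the test.

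Slc22a2 (Oct2), a main route of organic cations from blood into the mouse proximal tubule, read 17.17, 16.70 and 17.23 in the wild type samples. In Alport vehicle it read 15.67, 15.88 and 15.95, all below the wild type samples. The change was -1.20 ± 0.18 (SE, n = 3 per group, limma adjusted p = 0.000182), a fall of 2.30-fold with a 95% confidence interval of 1.78 to 2.97. Its signal was among the brightest of each array, above at least 98.9% of probe sets, and compression at that level was not tested.

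Slc47a1 (Mate1), which passes organic cations from the cell into the urine, read 16.08, 16.04 and 16.26 in wild type and 14.96, 15.24 and 14.68 in Alport vehicle. It fell by 1.17 ± 0.17 (limma adjusted p = 0.000207), or 2.25-fold with an interval of 1.74 to 2.89. The groups did not overlap for Slc22a2, Slc47a1, Slc22a4, Slc22a5 and Slc47a2, as for 15.5% of all probe sets that were lower in Alport vehicle.

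Slc22a4 read 11.19, 11.34 and 11.33 in wild type, close together, and 8.85, 9.26 and 9.67 in Alport vehicle, where the samples lay farther apart. It fell by 2.03 ± 0.24 (limma adjusted p = 2.79e-05), or 4.08-fold with an interval of 2.88 to 5.77. Slc22a5 read 12.79, 13.11 and 13.20 in wild type and 11.62, 12.37 and 12.14 in Alport vehicle. Its fall of 0.99 ± 0.21 (limma adjusted p = 0.00424) was 1.99-fold, with an interval of 1.45 to 2.72, and Alport vehicle sample 1 was the lowest for Slc22a5 and for Slc22a4.

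The other pair stayed near the low end of the arrays. Slc47a2 (Mate2), the second exchanger of the family, read 4.49, 4.20 and 4.36 in wild type and 4.11, 4.06 and 4.11 in Alport vehicle, around the lower quartile of these arrays (4.18 to 4.25). Its difference of -0.26 ± 0.16 did not pass (limma adjusted p = 0.347). Slc29a4 read 4.80, 4.53 and 4.63 in wild type and 4.88, 4.62 and 5.01 in Alport vehicle, with overlap and a difference of 0.18 ± 0.20 (limma adjusted p = 0.617). At such signals a change can be understated, and the 95% intervals, -0.60 to 0.09 for Slc47a2 and -0.24 to 0.60 for Slc29a4, hold for the array signal only. Slc47a1 and Slc47a2 are next to each other on the chromosome, with 0 protein-coding genes between them.

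**Figure D1:**
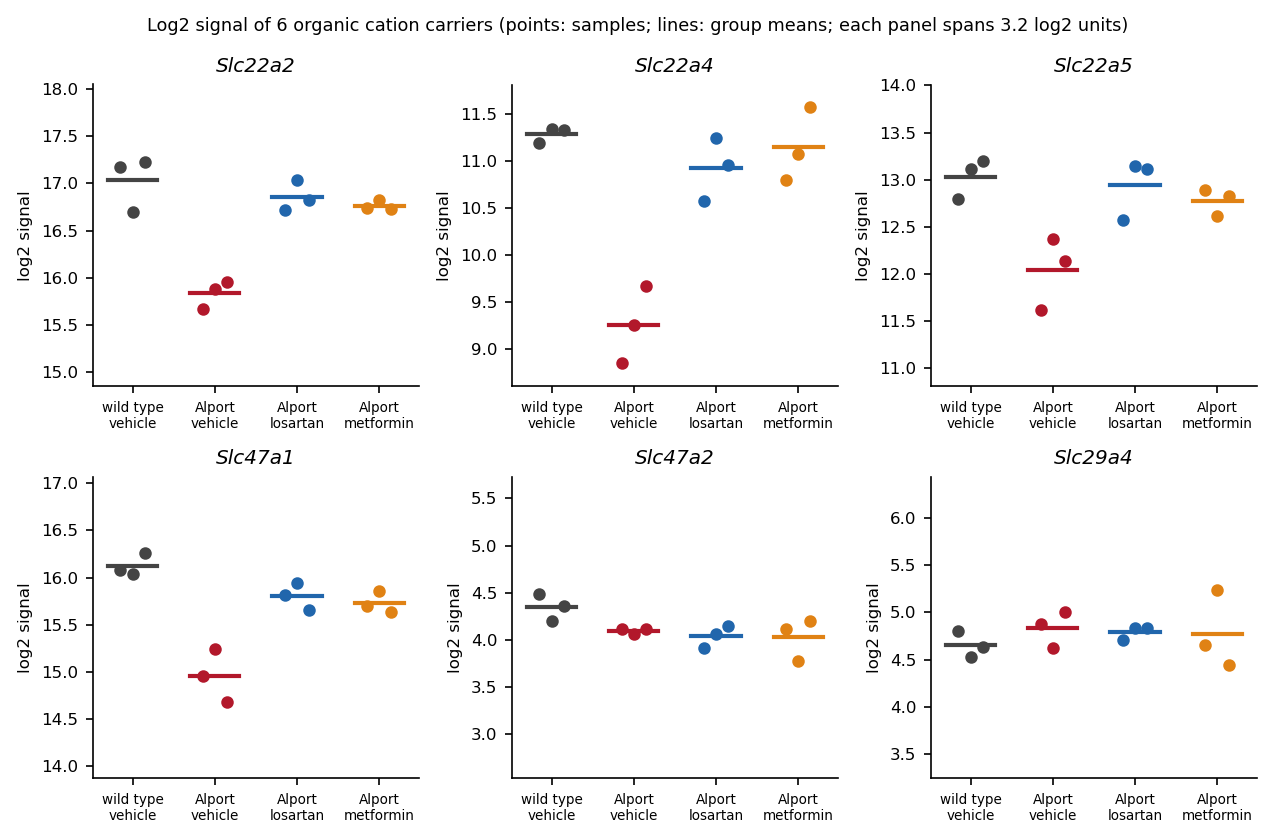
Log2 signal of the 6 measured carriers in each of the 12 samples (points) by group, with group means (lines); every panel spans the same number of log2 units but has its own offset. Slc22a2, Slc22a4, Slc22a5 and Slc47a1 are lowest in the 3 Alport vehicle samples, while Slc47a2 and Slc29a4 stay between 3.77 and 5.24.

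Losartan and metformin were each compared with vehicle in Alport mice, which asks how the carriers stood under each drug. Both comparisons share the Alport vehicle samples, which also enter the comparison with wild type. Any spread in those 3 samples therefore moves all of these values, and each is given on its own. With losartan 4 of the 6 carriers rose and 0 fell, where 3.79% of all probe sets rose and 4.11% fell. With metformin 3 of the 6 rose and 0 fell, where 2.67% of all probe sets rose and 2.27% fell. After centring on sample medians, falls made up 36.9% of the probe sets called with losartan and 31.5% of those called with metformin, in place of 52.0% and 46.0%.

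Slc22a2 read 16.72, 17.04 and 16.82 with losartan and 16.74, 16.82 and 16.73 with metformin, all above the highest Alport vehicle sample at 15.95. It rose by 1.03 ± 0.18 with losartan (limma adjusted p = 0.00253), or 2.04-fold. With metformin it rose by 0.93 ± 0.18 (limma adjusted p = 0.00766), or 1.91-fold. In order of their means the groups stood at 17.03 ± 0.29 in wild type, 16.86 ± 0.16 with losartan, 16.76 ± 0.05 with metformin and 15.83 ± 0.15 in Alport vehicle (SD, n = 3 each). Among these, the values of wild type, losartan and metformin overlapped.

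Slc47a1 read 15.82, 15.94 and 15.66 under losartan and 15.70, 15.86 and 15.63 under metformin. It rose by 0.85 ± 0.17 under losartan (limma adjusted p = 0.00749) and by 0.77 ± 0.17 under metformin (limma adjusted p = 0.0184), 1.80-fold and 1.71-fold. The metformin call was lost without Alport vehicle sample 1 (adjusted p = 0.0674), Alport vehicle sample 3 (0.0696), metformin sample 2 (0.0680) or metformin sample 3 (0.0573), and in a fit of only these groups (0.0673). All 6 treated samples lay above the 3 Alport vehicle samples and below the 3 wild type samples. Means were 16.13 ± 0.12 in wild type, 15.81 ± 0.14 with losartan, 15.73 ± 0.12 with metformin and 14.96 ± 0.28 in Alport vehicle (SD, n = 3 each). Losartan and metformin overlapped.

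Slc22a4 again had the largest changes of the 6. It read 10.57, 11.24 and 10.96 with losartan, a rise of 1.66 ± 0.24 (limma adjusted p = 0.000794) or 3.17-fold, with an interval of 2.24 to 4.49. With metformin it read 10.80, 11.07 and 11.57, a rise of 1.89 ± 0.24 (limma adjusted p = 0.00111) or 3.70-fold, with an interval of 2.61 to 5.24. The order of means was 11.29 ± 0.08 in wild type, 11.15 ± 0.39 with metformin, 10.92 ± 0.34 with losartan and 9.26 ± 0.41 in Alport vehicle (SD, n = 3 each). Wild type, metformin and losartan overlapped, and metformin sample 3 was the highest of all 12 samples.

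Slc22a5 read 12.57, 13.15 and 13.11 with losartan and rose by 0.90 ± 0.21 (limma adjusted p = 0.0172), or 1.87-fold. That call was lost without Alport vehicle sample 1 (0.69, adjusted p = 0.0951), losartan sample 2 (adjusted p = 0.0894) or losartan sample 3 (adjusted p = 0.0736). With metformin it read 12.89, 12.61 and 12.83, a difference of 0.73 ± 0.21 that did not pass (limma adjusted p = 0.0620), although its 95% interval of 0.28 to 1.19 lay above 0 and its samples did not overlap with Alport vehicle. It passed after centring on sample medians (adjusted p = 0.0407), with a trended robust prior (0.0317) and without Alport vehicle sample 2 (0.0308). Means were 13.03 ± 0.22 in wild type, 12.94 ± 0.32 with losartan, 12.78 ± 0.15 with metformin and 12.04 ± 0.38 in Alport vehicle (SD, n = 3 each), with overlap among wild type, losartan and metformin. The samples of Slc22a2, Slc22a4, Slc22a5 and Slc47a1 under each drug lay above all Alport vehicle samples, as did those of 11.8% of all probe sets with losartan and 10.6% with metformin.

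Slc47a2 read 3.91, 4.06 and 4.15 with losartan and 4.11, 3.77 and 4.20 with metformin. Its differences from Alport vehicle were -0.05 ± 0.16 and -0.07 ± 0.16 (limma adjusted p = 0.907 and 0.894). Slc29a4 read 4.71, 4.84 and 4.84 with losartan and 4.65, 5.24 and 4.44 with metformin, with differences of -0.04 ± 0.20 and -0.06 ± 0.20 (limma adjusted p = 0.945 and 0.925). The sign of the differences from Alport vehicle in Slc47a2 and Slc29a4 turned after centring on sample medians.

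**Figure D2:**
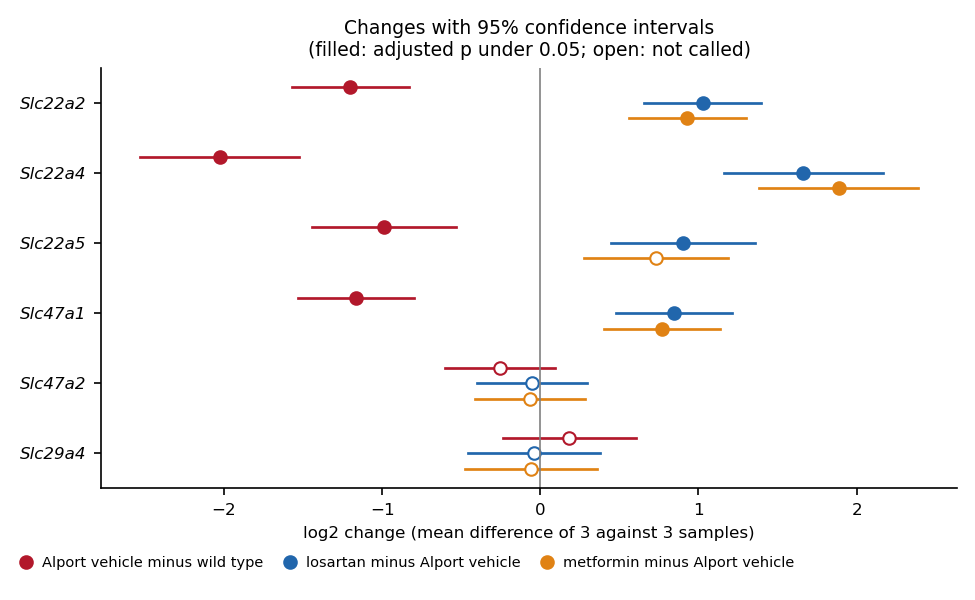
Log2 change of each carrier (points) with its 95% confidence interval (lines) in Alport vehicle against wild type and in each drug against Alport vehicle, 3 samples a group; filled points passed the adjusted p of 0.05. Slc22a4 lies farthest from 0 in all 3 comparisons, and Slc22a5 with metformin is the open point whose interval of 0.28 to 1.19 lies above 0.

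Metformin was next compared with losartan, which asks whether carriers of metformin stood differently in mice that drank it. None of the 6 carriers was called (0 at adjusted p under 0.05 and 0 at unadjusted p under 0.05, limma), where 0.045% and 8.37% of all probe sets passed these thresholds. The differences of metformin minus losartan were -0.10 for Slc22a2 (95% interval -0.47 to 0.27), -0.08 for Slc47a1 (-0.44 to 0.29), 0.22 for Slc22a4 (-0.28 to 0.73) and -0.17 for Slc22a5 (-0.62 to 0.29). These intervals leave room for differences of up to 0.73 on the log2 scale, so the drugs were not shown to act alike on the carriers. For Slc47a2 and Slc29a4 the intervals were -0.36 to 0.33 and -0.44 to 0.40.

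Against wild type, none of the 6 carriers was called with losartan or with metformin, where 0.549% and 4.18% of all probe sets were called. Slc47a1 stood at -0.40 ± 0.17 with metformin (limma unadjusted p = 0.0357, adjusted p = 0.237, interval -0.76 to -0.03) and -0.32 ± 0.17 with losartan (adjusted p = 0.547, interval -0.69 to 0.05). It was the only carrier below unadjusted p = 0.05 in either comparison, a threshold that 10.7% of all probe sets passed with losartan and 18% with metformin. The samples of Slc47a1 lay below all wild type samples under both drugs, as did those of 8.32% of all probe sets with losartan and 12.2% with metformin. Slc22a2 stood at -0.17 with losartan (-0.54 to 0.20) and -0.27 with metformin (-0.64 to 0.10). Slc22a4 stood at -0.36 (-0.87 to 0.14) and -0.14 (-0.64 to 0.36), and Slc22a5 at -0.09 (-0.55 to 0.37) and -0.26 (-0.71 to 0.20). Falls made up 35.5% of the probe sets called with metformin against wild type, and 48.6% after centring on sample medians.

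The 4 carriers that changed are known from the proximal tubule, though not only from there, and its markers moved with them. Which cells held these transcripts was not tested. In bulk tissue, fewer cells of a type and less RNA per cell cannot be told apart. Over the list of 13 proximal tubule markers, 10 fell in Alport vehicle against wild type, with a median log2 change of -0.64 beside -0.03 for all probe sets. They included the transcription factor Hnf4a (-1.31 ± 0.16), the amino acid carrier Slc7a13 (-1.83 ± 0.24), the dicarboxylate carrier Slc13a3 (-1.49 ± 0.23) and the endocytic receptor Cubn (-1.12 ± 0.20). The mean log2 signal over the 13 markers ran from 16.69 to 16.77 in wild type samples and from 15.62 to 16.10 in Alport vehicle. It ran from 16.36 to 16.66 with losartan, where 5 of the 13 rose, and from 16.41 to 16.61 with metformin, where 4 rose. Of all probe sets 7.71% fell in Alport vehicle, and 3.79% rose with losartan and 2.67% with metformin.

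Each sample was next centred on the mean of these markers, a setting chosen after the data were seen. Slc22a4 alone of the 4 then stood apart from the marker mean in Alport vehicle against wild type. Relative to the markers it was at -1.18 ± 0.23 (limma, unadjusted p = 3.54e-05, interval -1.65 to -0.71). Slc22a2 was at -0.36 ± 0.21 (interval -0.79 to 0.07), Slc47a1 at -0.32 ± 0.22 (-0.77 to 0.12) and Slc22a5 at -0.15 ± 0.21 (-0.58 to 0.29). Under losartan Slc22a4 was at 1.00 ± 0.23, and under metformin at 1.25 ± 0.23, relative to the markers (limma, unadjusted p = 0.000250 and 1.77e-05). The other 3 ranged from 0.10 to 0.36, with intervals that held 0. The adjusted p is not used here, since 79.3% of all probe sets rise against wild type on this scale. As deposited, the changes of the 13 markers in Alport vehicle ran from -1.83 (Slc7a13) to -0.27, beside -2.03 ± 0.24 for Slc22a4. The highest marker change was 1.77 with losartan, beside 1.66 for Slc22a4, and 1.34 with metformin, beside 1.89. Slc22a4 was not tested against single markers. The markers were brighter, with a mean of 16.72 in wild type beside 11.29 for Slc22a4, and compression of bright signal was not tested.

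Markers of stromal cells, macrophages and injured tubules were higher in Alport vehicle, where the carriers were lower, than in wild type. All 5 measured of 6 fibroblast and pericyte markers rose in Alport vehicle, where their mean signal was 12.30 to 12.50, against 7.74 to 8.20 in wild type, 9.54 to 10.23 with losartan and 10.00 to 11.13 with metformin. Macrophage markers, 6 measured of 7 and 5 of them risen, ran from 9.19 to 10.84 in Alport vehicle and from 6.90 to 7.19 in wild type, and from 8.23 to 8.66 with losartan and 8.48 to 9.83 with metformin. All 6 measured of 7 tubular injury markers rose as well, from 6.97 to 7.06 in wild type to 11.14 to 12.24 in Alport vehicle. Under losartan they ran from 9.51 to 10.51 and under metformin from 9.51 to 11.36. Against Alport vehicle all 5 fibroblast and pericyte markers fell with each drug. Of the 6 macrophage and the 6 injury markers, 4 each fell with losartan but only 1 each with metformin, where 4.11% and 2.27% of all probe sets fell. Under metformin the sample means of both these lists overlapped with Alport vehicle. Single markers of other tubule lists also fell in Alport vehicle, where 7.71% of all probe sets fell and 8.43% rose. These were 2 of 4 distal convoluted tubule markers, 2 of 5 intercalated cell markers and 1 of 5 thick ascending limb markers, and 0 rose. Among them were Pvalb (-1.23 ± 0.25) and Egf (-2.03 ± 0.33), while the list medians were -0.33, -0.13 and 0.07. The same medians were 0.27, -0.05 and -0.06 with losartan and 0.38, -0.75 and 0.40 with metformin. Principal cell and podocyte markers had medians of 0.16 and 0.50 in Alport vehicle, with 1 riser each. All 3 liver genes examined fell in Alport vehicle, among them Alb (-1.29 ± 0.25) and Serpina1c (-1.25 ± 0.21), named after their values were seen, and 2 of the 3 rose with each drug. The mean signal of the liver genes was 8.48 to 8.62 in wild type, 7.01 to 7.76 in Alport vehicle, 8.20 to 8.52 with losartan and 8.22 to 8.86 with metformin. No measured marker of these lists lay below the lower quartile throughout a group. Their part in the carriers' changes was not tested.

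Other carriers and related gene lists were set beside these. The counts of each list stand beside the same shares of all probe sets. In Alport vehicle 7.71% fell and 8.43% rose. With losartan 3.79% rose and 4.11% fell, and with metformin 2.67% rose and 2.27% fell. Of 19 measured of 20 other carriers of cations, choline, thiamine, nucleosides and monoamines, 6 fell and 1 rose in Alport vehicle, with a median log2 change of -0.44. The falls included Slc22a18 (-1.38 ± 0.20), a carrier that shares the Slc22a symbol, and the choline carrier family member Slc44a4 (-1.10 ± 0.18). Also among them were Slc19a3 (-1.21 ± 0.24), a thiamine carrier that also takes metformin, and the nucleoside carrier Slc29a3 (-0.82 ± 0.18). The 1 that rose, named after its value was seen, was Slc44a2 (1.04 ± 0.23, limma adjusted p = 0.00518), of the same choline carrier family as Slc44a4. With losartan and with metformin 4 of the 19 rose and 0 fell, with medians of 0.26 and 0.31 beside 0.01 and -0.01 for all probe sets. In both cases they were Slc22a18 (1.13 ± 0.20 and 1.07 ± 0.20), Slc44a4 (0.79 ± 0.18 and 0.95 ± 0.18), Slc19a3 (1.07 ± 0.24 and 1.16 ± 0.24) and the serotonin carrier Slc6a4 (1.31 ± 0.29 and 1.47 ± 0.29). With losartan the call of Slc44a4 was lost without Alport vehicle sample 1 (adjusted p = 0.0725) or losartan sample 2 (0.0754), and that of Slc6a4 without losartan sample 2 (0.0654). The call of Slc19a3 with losartan was lost without Alport vehicle sample 1 (0.0691), losartan sample 2 (0.0811) or losartan sample 3 (0.0619). With metformin Slc19a3 was lost without Alport vehicle sample 1 (0.0710) and Slc6a4 without metformin sample 3 (0.0543).

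Of 22 organic anion carriers and efflux pumps of the proximal tubule, 16 fell in Alport vehicle and 0 rose, with a median of -0.94. The largest named change was that of the organic anion carrier Slco1a1 (-3.14 ± 0.39), and the nicotinate and urate carrier Slc22a13 was at -1.45 ± 0.22. With losartan 14 of the 22 rose (median 0.83) and with metformin 10 rose (median 0.69), with 0 falls in either. Slc22a22, a prostaglandin carrier of the same family as Slc22a2, was at -2.36 ± 0.32 in Alport vehicle, 1.95 ± 0.32 with losartan and 1.88 ± 0.32 with metformin, and passed in each.

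Carnitine taken up by Slc22a5 is also made in the body and spent on fatty acid transport. Of 10 genes of carnitine synthesis and use, 6 fell in Alport vehicle and 0 rose (median -0.76). They included Tmlhe, the first enzyme of carnitine synthesis (-0.97 ± 0.22), the aldehyde dehydrogenase Aldh9a1 of the same path (-0.93 ± 0.18) and the carnitine palmitoyltransferase Cpt1a (-0.91 ± 0.15). With losartan 4 of the 10 rose (median 0.58) and with metformin 2 (median 0.44), with 0 falls. Shmt2, a mitochondrial enzyme of serine and glycine, rose with both (0.94 ± 0.17 and 0.87 ± 0.17), the metformin call being lost without Alport vehicle sample 1 (adjusted p = 0.0517). Aldh9a1 also rose with both (0.71 ± 0.18 and 0.83 ± 0.18). Its losartan call was lost without Alport vehicle sample 1 (0.112), losartan sample 2 (0.0880) or losartan sample 3 (0.0794). Its metformin call was lost without Alport vehicle sample 1 (0.0743) or metformin sample 3 (0.0614). Both were lost in a fit of only the groups compared (0.0650 and 0.0610). With losartan Tmlhe rose by 0.96 ± 0.22 and Cpt1a by 0.64 ± 0.15. The Tmlhe call was lost without Alport vehicle sample 1 (0.0563) or losartan sample 2 (0.0773), and that of Cpt1a without Alport vehicle sample 1 (0.0673), losartan sample 2 (0.0804) or losartan sample 3 (0.0587).

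Mate exchangers run on the proton gradient that sodium-proton exchange and proton pumps make. Of 6 measured of 7 genes of that set, 4 fell in Alport vehicle and 0 rose: the sodium-proton exchangers Slc9a3 (-0.76 ± 0.16) and Slc9a8 (-1.03 ± 0.24) and the proton pump subunits Atp6v1b2 (-0.83 ± 0.16) and Atp6v1a (-0.73 ± 0.18). With losartan 2 of the 6 rose, Atp6v1a (0.73 ± 0.18) and Atp6v1b2 (0.65 ± 0.16), and with metformin 0 did, by limma, with 4 of 6 at an unadjusted p under 0.05 with losartan (20.4% of all probe sets) and 3 with metformin (18.6%). Both losartan calls were lost without Alport vehicle sample 1 (adjusted p = 0.0785 and 0.0728), Alport vehicle sample 3 (0.0594 and 0.0609) or losartan sample 2 (0.115 and 0.0826), and that of Atp6v1b2 also without losartan sample 3 (0.0871) and under quantile normalization (0.0590). That of Atp6v1a was also lost in a fit of only these groups (0.0543). After centring on sample medians Slc9a8 passed with losartan and with metformin (0.0346 and 0.0467) and Atp6v1b2 with metformin (0.0352). Atp6v1b2 passed with metformin also without the dimmest probe sets (0.0469), with a trended robust prior (0.0247) and without metformin sample 2 (0.0413). The trended robust prior also gave Slc9a8 with both drugs (0.0405 and 0.0459) and Atp6v1a with metformin (0.0458). Slc9a8 passed without Alport vehicle sample 3 as well (0.0175 with losartan and 0.0229 with metformin), and with losartan without the dimmest probe sets (0.0498) and with array weights (0.0467).

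Of 8 measured of 11 regulators and scaffolds of tubular carriers 3 fell in Alport vehicle, Hnf4a, the nuclear receptor Ppara (-1.62 ± 0.28) and the scaffold Slc9a3r1 (-0.71 ± 0.15). Hnf4a rose with losartan (1.22 ± 0.16, limma adjusted p = 0.000530) and with metformin (0.83 ± 0.16, limma adjusted p = 0.00889). With metformin this was lost in a fit of only these groups (adjusted p = 0.0503). Of the 8, 2 rose with losartan and 1 with metformin, and 0 fell. The other riser with losartan was Slc9a3r1 (0.52 ± 0.15, limma adjusted p = 0.0478). Its call was lost without Alport vehicle sample 1 (0.139) or 3 (0.133) and without losartan sample 1 (0.124), 2 (0.109) or 3 (0.109). It was also lost under quantile normalization (0.179), with array weights (0.0612) and in a fit of only these groups (0.110). Under some alternative settings Pdzk1 passed in Alport vehicle, Pdzk1 and Ppara with losartan, and Pdzk1, Ppara and Nr1i3 with metformin.

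Of 10 genes named for the response to metformin, among them the subunits of the energy sensor AMPK, 1 fell in Alport vehicle, where 7.71% of all probe sets fell. With losartan 0 changed, and with metformin 1 rose, where 2.67% of all probe sets rose. By limma 4 of the 10 were at an unadjusted p under 0.05 with each drug. Of all probe sets 20.4% were so with losartan and 18.6% with metformin. The list medians were -0.23 in Alport vehicle, 0.13 with losartan and -0.04 with metformin. Under some alternative settings the AMPK subunit gene Prkaa2, Gpd2 and G6pc passed in Alport vehicle. Under some, Prkaa2 and G6pc passed with losartan, and Gpd2 and G6pc with metformin. The 1 gene called in Alport vehicle and with metformin was Pck1, an enzyme of glucose synthesis. It stood at -1.09 ± 0.33 in Alport vehicle (limma adjusted p = 0.0306) and 1.50 ± 0.33 with metformin (limma adjusted p = 0.0161). The fall of Pck1 was lost without wild type sample 2 (adjusted p = 0.0642), wild type sample 3 (0.147) or Alport vehicle sample 1 (0.144), and its rise without Alport vehicle sample 1 (0.0567) or metformin sample 3 (0.0628). In a fit of only the groups compared both were lost (0.0703 and 0.0574), and the fall also under quantile normalization (0.0822) and with a trended robust prior (0.0785). With losartan Pck1 was at 1.09 ± 0.33 and did not pass (limma adjusted p = 0.0506), but did without Alport vehicle sample 2 (0.00999), after centring on sample medians (0.0332), without the dimmest probe sets (0.0412) and with array weights (0.0441).

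**Figure D3:**
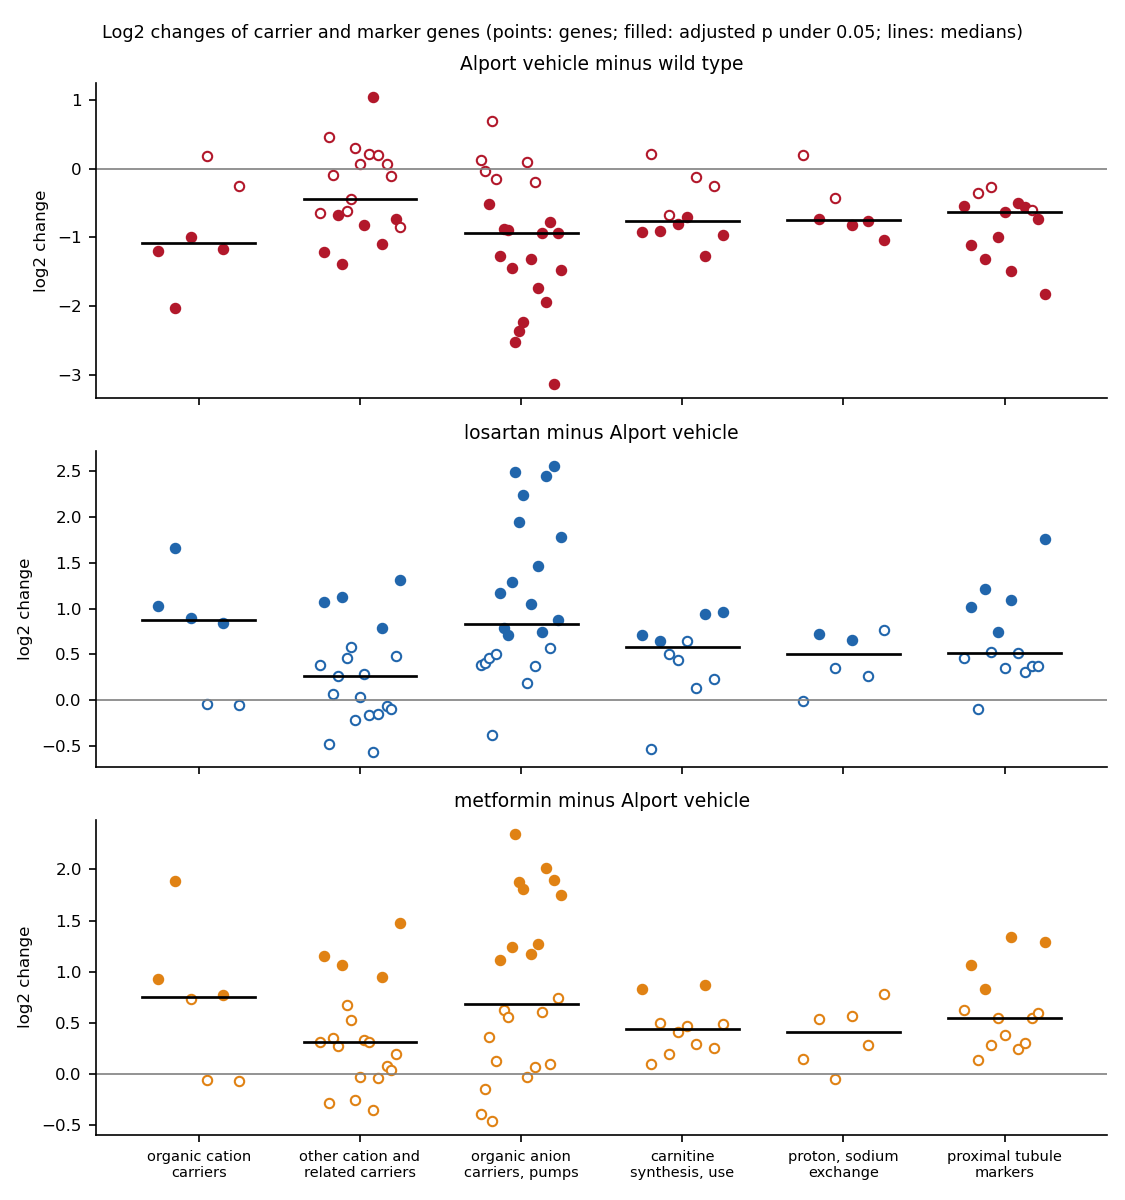
Log2 changes (vertical axis) of the 6 carriers, of the genes of 4 lists and of the proximal tubule markers (points) in 3 comparisons, with list medians (lines); filled points passed the adjusted p of 0.05. In Alport vehicle the medians of all 6 columns lie below 0, and with each drug they lie above 0.

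Neighbouring genes on the chromosome were then examined for each of the 6 carriers, a step chosen after the data were seen. Called in Alport vehicle beside the other carriers were Mas1 near Slc22a2 (-0.75 ± 0.22) and Mfap4 near Slc47a1 (1.71 ± 0.22). Wipi2 (-0.74 ± 0.18) and Fbxl18 (-0.57 ± 0.17) fell near Slc29a4, which was not called itself. The stretch of Slc22a5 and Slc22a4 is given in more detail. Slc22a5, Slc22a21 and Slc22a4 stand side by side and encode the 3 Octn carriers of the mouse, of which Slc22a21 (Octn3) also carries carnitine. The 3 are related in sequence, and signal shared between them on the array was not tested. Slc22a21 was at -0.62 ± 0.20 in Alport vehicle and did not pass (limma adjusted p = 0.0507), although it did without Alport vehicle sample 2 (0.0416) and in a fit of only these groups (0.0496). It passed also after centring on sample medians (0.0171), without the dimmest probe sets (0.0406) and with a trended robust prior (0.0437). It was at 0.46 ± 0.20 with losartan and 0.68 ± 0.20 with metformin, which did not pass either (adjusted p = 0.207 and 0.0696), except with metformin after centring on sample medians (0.0447). Irf1, an interferon-induced transcription factor next to Slc22a5, rose in Alport vehicle (1.61 ± 0.28, limma adjusted p = 0.000785) and fell with losartan (-1.34 ± 0.28, limma adjusted p = 0.00829). With metformin Irf1 was at -0.68 ± 0.28 and did not pass (limma adjusted p = 0.192). Pdlim4, next to Slc22a4, was at 0.48 ± 0.18 in Alport vehicle and did not pass (limma adjusted p = 0.0827). P4ha2, a collagen prolyl hydroxylase one gene further, was at -0.26 ± 0.18 in Alport vehicle and did not pass (limma adjusted p = 0.386). It rose with losartan (0.61 ± 0.18, limma adjusted p = 0.0489) and with metformin (0.92 ± 0.18, limma adjusted p = 0.00907), as Slc22a4 did. The metformin call was lost without Alport vehicle sample 1 (adjusted p = 0.0524). The losartan call was lost without Alport vehicle sample 1 (0.202) or 3 (0.118), without losartan sample 2 (0.191) or 3 (0.132), with a trended robust prior (0.0519) and in a fit of only these groups (0.107).

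**Figure D4:**
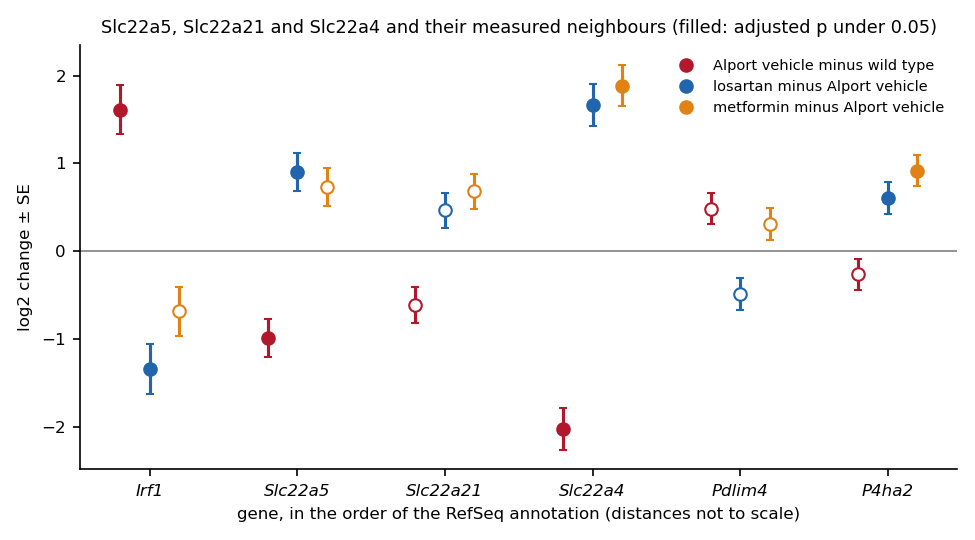
Log2 change with its standard error (vertical axis) of Slc22a5, Slc22a21 and Slc22a4 and of the measured genes beside them, in gene order (horizontal axis), for 3 comparisons; filled points passed the adjusted p of 0.05. The 3 carriers lie below 0 in Alport vehicle and above 0 with each drug, while Irf1 lies at 1.61 in Alport vehicle.

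The closest genes were found for each carrier that changed. They are the 3 named genes with the smallest root mean square difference over the 12 samples after each gene was centred on its own mean. The values were not scaled, so the size of a gene's changes counts as well as their pattern. For Slc22a2 they were Pdzd3, a PDZ-domain scaffold (0.10), Shmt2 (0.13) and the palmitoyltransferase Zdhhc6 (0.14), beside a spread of Slc22a2 itself of 0.49 on the same scale. For Slc47a1, with a spread of 0.45, they were Mlec (0.13), Zdhhc6 (0.15) and the carboxylesterase Ces1f (0.15), which belongs to a family of near-identical genes and is uncertain on an array. For Slc22a4, with a spread of 0.86, they were the medium-chain acyl-CoA synthetase Acsm5 (0.20), the dimethylglycine dehydrogenase Dmgdh (0.22) and Susd2 (0.22). For Slc22a5, with a spread of 0.45, they were Prodh2 (0.16), an enzyme of hydroxyproline breakdown, the pyruvate dehydrogenase kinase Pdk2 (0.17) and Fam151a (0.17). Among the carriers, Slc22a2 and Slc47a1 were closest to each other (0.20), and Slc22a4 was farther from every other one (0.45 from Slc22a2, 0.50 from Slc22a5 and 0.54 from Slc47a1). These differences describe likeness over 12 samples and carry no test.

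**Figure D5:**
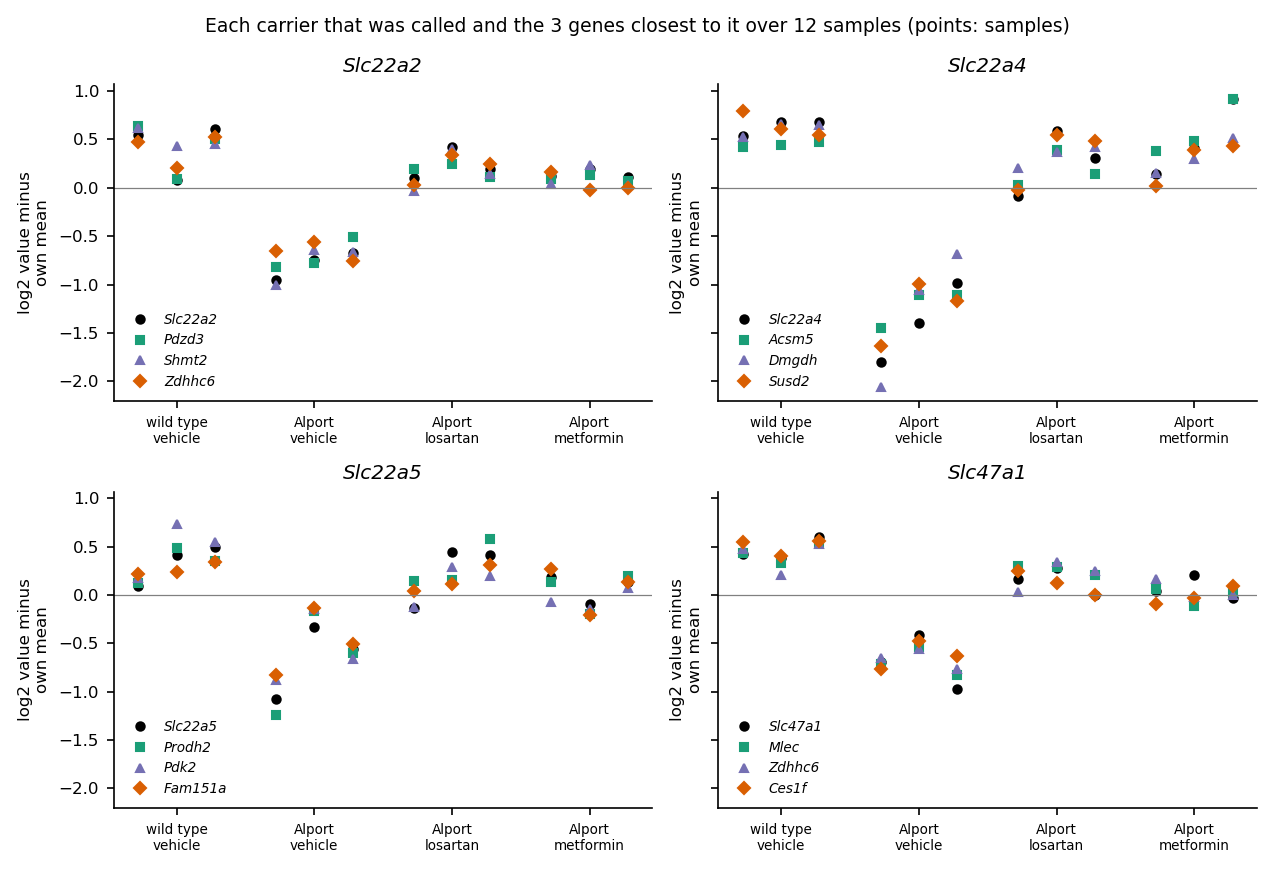
Log2 value minus the gene's own mean (vertical axis) in 12 samples by group (points) for Slc22a2, Slc22a4, Slc22a5 and Slc47a1, each with the 3 genes closest to it. In every panel all points of the 3 Alport vehicle samples lie below 0, and the lowest points are in the Slc22a4 panel.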

How the data were processed

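The authors deposited a log2 signal for each of 22206 probe sets in each of 12 samples. The log2 scale was inferred from their range of 2.30 to 19.88. Per the submitters' processing notes, Transcriptome Analysis Console 4.0 was used. How the signals were background-corrected and normalized is not given in the sources. Gene symbols came from the platform annotation and were checked by gene identifier against RefSeq genes of GRCm38.p6, which changed 0 symbols and also served for gene order: 19572 had 1 symbol, 0 had several and 2634 had none. Where a gene had more than 1 probe set, the one with the highest mean was used.

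With limma 3.58.1 (R 4.3.3), 1 mean was fitted for each of the 4 groups, leaving 8 residual degrees of freedom over 12 samples. The tests had 2 sides, with Benjamini-Hochberg adjustment over all 22206 probe sets of each of 6 comparisons. A probe set counted as changed below an adjusted p of 0.05. The carriers and gene lists were chosen with earlier results of these data known, and from each list and comparison at most 4 genes with the smallest p are named, beside genes said to be chosen after their values were seen. The procedure was tested on simulated data. Precision is limited by the 3 arrays a group (median SE of a change 0.20). Deviations of same-numbered samples correlated little, and the samples were not paired. The alternatives were other centrings and normalizations, a filter on dim probe sets, other variance priors and weights, fits of only the groups compared, a block for the replicate number, another threshold and leaving out each sample.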

Additional observations from a re-analysis of the deposited data

How the results depend on the processing

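Across the alternatives planned and the 1 added, the values of the 6 carriers kept direction and side of the threshold in 83 of 89 cases for Alport vehicle against wild type, 73 of 89 for losartan and 68 of 89 for metformin against Alport vehicle. Slc22a4 kept its call in each of these 3 comparisons under every alternative run. For 1833 values of other named genes, 129 calls were lost, 65 were gained and 0 turned in direction.

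Centring on the proximal tubule markers shifts every value by the change of those markers by construction. It left Slc22a2, Slc47a1 and Slc22a5 uncalled in Alport vehicle (-0.36, -0.32 and -0.15). The same 3 were uncalled under losartan (0.36, 0.18 and 0.23), as were Slc22a2 and Slc47a1 under metformin (0.30 and 0.14). It moved the dim Slc47a2 and Slc29a4 to 0.59 and 1.03 in Alport vehicle. Under losartan these stood at -0.72 and -0.71, and under metformin at -0.70 and -0.69. All passed the threshold on this scale, as did most probe sets. Of all probe sets, 79.3% rose in Alport vehicle, 65.3% fell under losartan and 63.9% fell under metformin. The calls of Slc47a2 and Slc29a4 on this scale are therefore not read as changes of these genes. Centring on the markers turned uncalled differences of metformin minus losartan to 0.0195 (Slc47a2) and 0.0128 (Slc29a4), of losartan minus wild type to 0.0021 (Slc22a2) and 0.0854 (Slc22a5), and of metformin minus wild type to 0.0682 (Slc22a4).

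Asking for an unadjusted p under 0.05 with a change of 2-fold left out Slc22a5 in Alport vehicle (-0.99), Slc22a5 and Slc47a1 with losartan (0.90 and 0.85, 2 carriers left) and Slc22a2 and Slc47a1 with metformin (0.93 and 0.77, 1 carrier left). It gave 1565 probe sets for Alport vehicle against wild type in place of 3582, 799 in place of 1755 with losartan, 511 in place of 1096 with metformin, 102 in place of 10 between the drugs, 239 in place of 122 for losartan against wild type and 542 in place of 928 for metformin against wild type. Fitting only the groups compared lost Slc47a1 with metformin (0.77) and gave 410 probe sets with metformin, 3 between the drugs and 285 for losartan against wild type. Array weights gave 17 between the drugs and 195 for losartan against wild type. Slc22a5 passed with metformin after median centring (0.81) and with a trended robust prior (0.73). Median centring turned Slc47a2 (0.0383) and Slc29a4 (0.0517) with losartan, and Slc47a2 (0.005) and Slc29a4 (0.0117) with metformin. Quantile normalization turned Slc29a4 with losartan (0.0103) and metformin (0.0042), and Slc47a2 between the drugs (0.0203). The cause was not tested.

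Leaving out 1 sample gave Slc22a5 0.69 to 1.09 with losartan and 0.52 to 0.90 with metformin, and Slc47a1 0.63 to 0.91 with metformin. Uncalled values that turned ran from -0.11 to 0.0117 (Slc47a2) and -0.15 to 0.0467 (Slc29a4) with losartan, -0.15 to 0.0617 and -0.29 to 0.11 with metformin, and -0.10 to 0.12 and -0.25 to 0.15 between the drugs. Slc22a5 ran from -0.21 to 0.10 for losartan against wild type, and Slc22a4 from -0.35 to 0.0333 and Slc29a4 from -0.11 to 0.29 for metformin against wild type. Counts of probe sets ran from 716 to 2073 with losartan, 266 to 1320 with metformin, 5 to 91 between the drugs, 37 to 62 for losartan against wild type and 346 to 1019 for metformin against wild type.

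With the replicate number as a block, Slc22a4 stood at -2.03 in Alport vehicle (limma adjusted p = 1.14e-05) and no call of the 6 carriers changed, while Slc22a21 passed (0.0325) and the losartan calls of Slc9a3r1 (0.0771) and P4ha2 (0.0660) were lost. Deviations of same-numbered samples correlated at -0.14 to 0.08 over the 6 comparisons. With 3 samples a group a small shared effect could go unseen, and the labels do not say what the number stands for. Leaving out the dimmest 33.3% of probe sets removed Slc47a2 and gave it no value. No carrier had another probe set to try. Signal near the low end of the arrays limits Slc47a2 and Slc29a4.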
